A study of Mus musculus with 8 samples.

Results

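Messenger RNA levels of 9 genes of cytokine signalling, Socs1, Socs2, Socs3, Cish, Pim1, Stat3, Stat5a, Stat5b and Stat6, were followed in mouse Th17 and Th1 cells with and without the DNA-demethylating enzyme Tet2. A gene was included where a probe set of the array was annotated with its symbol and no other, and the probe set with the highest mean signal stood for it. All 9 were measured, of 19938 genes in the table, and none was left out by a filter. The array series was made to see how Tet2 takes part in T helper subset differentiation. It holds 8 arrays of total RNA in 4 groups of 2 biological replicates, as the sample titles call them. Tet2-deficient Th17 cells and Tet2-deficient Th1 cells were derived from CD2(Cre)Tet2(f/f) mice. Wild-type Th17 cells and wild-type Th1 cells came from Tet2(f/f) mice. All 4 groups thus carry the floxed Tet2 allele, and only the Tet2-deficient groups are labelled with the Cre transgene, so that loss of Tet2 and presence of Cre cannot be told apart. The labels give neither the age or number of animals behind an array nor the culture conditions, and p-values measure the spread between these arrays. Each level below is a log2 signal, in which a difference of 1 is a 2-fold change, and levels of different genes are not comparable because each probe set has its own brightness.

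Cytokines such as interleukin-2, interleukin-6 and interferon-gamma bind receptors that carry Janus kinases (JAKs), which phosphorylate transcription factors of the STAT family. STAT3 acts downstream of interleukin-6, interleukin-21 and interleukin-23 and is needed for Th17 cells, STAT5A and STAT5B act downstream of interleukin-2 and related cytokines, and STAT6 acts downstream of interleukin-4. Activated STATs switch on their own brakes, the SOCS proteins and the related CIS protein (encoded by Cish), which bind receptors or JAKs and shut the signal off, and they also induce the kinase PIM1, which supports survival and growth.

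The subset labels fitted the markers. The summed linear signal of 5 Th17 markers was 3649 to 4684 on the 4 Th17 arrays and 376.5 to 443.1 on the 4 Th1 arrays, and that of 6 Th1 markers was 2699 to 3217 on Th17 arrays and 7507 to 9959 on Th1 arrays. Markers of B cells and myeloid cells lay low on all arrays, with all 5 myeloid genes under the median gene. Tet2 itself was read by a probe set that need not lie in the deleted part and so checks nothing. Tet2-deficient arrays read 8.34 and 8.39 in Th17 cells, where wild-type arrays read 8.51 and 8.49, and they read 8.12 and 7.98 in Th1 cells, where wild-type arrays read 8.14 and 8.02. The Th17 arrays differed in the sex of their RNA. Xist, the RNA that silences an X chromosome in females, had a level of 8.60 and 11.27 in Tet2-deficient Th17 cells and of 5.15 and 10.07 in wild-type Th17 cells, but only 4.80 to 5.07 on the 4 Th1 arrays. Taking the highest Xist array as 100%, the female share of RNA was 14.8% and 100% on the Tet2-deficient Th17 arrays and 0.317% and 43% on the wild-type Th17 arrays. On the 4 Th1 arrays this share was 0% to 0.236%. The comparisons of Th17 with Th1 cells thus also carry a difference in the sex of the RNA, and the parts of subset and sex cannot be fully told apart. In bulk RNA, fewer cells of a type and less RNA per cell cannot be told apart.

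Promoter windows from RefSeq (GRCm38.p6) were matched by symbol for 8 of the 9 genes, as 11 windows of 300 bases that run from 250 bases before a transcription start to 50 bases after it. STAT dimers bind the palindrome TTCNNNGAA, and STAT6 also the longer form with 4 free bases in the middle, both of which read the same on either strand. Windows of Cish and Socs3 held TTCNNNGAA, and 0 of the 11 windows held the longer form. Over all 32851 windows of this length, 8.3% held TTCNNNGAA and 6.95% held the longer form. The windows of Cish (chr9:107296409-107296708, plus strand) and Socs3 (chr11:117969317-117969616, minus strand) are shown because they hold the letters through which STATs are known to act on their feedback genes, with each match in capitals.
Cish: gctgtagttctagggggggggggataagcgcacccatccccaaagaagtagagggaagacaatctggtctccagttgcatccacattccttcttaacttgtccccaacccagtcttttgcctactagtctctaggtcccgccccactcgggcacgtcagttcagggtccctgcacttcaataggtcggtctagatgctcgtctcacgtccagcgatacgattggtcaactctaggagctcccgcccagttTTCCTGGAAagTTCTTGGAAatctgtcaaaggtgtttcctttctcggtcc
Socs3: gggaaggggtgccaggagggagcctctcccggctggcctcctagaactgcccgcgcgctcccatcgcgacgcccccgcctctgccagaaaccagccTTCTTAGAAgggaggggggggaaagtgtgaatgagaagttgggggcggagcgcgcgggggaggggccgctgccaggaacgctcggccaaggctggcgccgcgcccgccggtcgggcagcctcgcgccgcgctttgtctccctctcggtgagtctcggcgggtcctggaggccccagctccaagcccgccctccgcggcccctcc
In Cish the matches are TTCCTGGAA at the start site (position 251 of the window) and TTCTTGGAA 12 bases into the transcript (position 262), and in Socs3 the match is TTCTTAGAA, which begins 154 bases before the start (position 97). A match is a description of letters and not a measured binding site.

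Stat5b, Stat5a and Stat3 lie next to each other on chromosome 11, in that order, with 346 bases between the annotated ends of Stat5b (100780731 to 100859004) and Stat5a (100859351 to 100885169), and 1636 bases between Stat5a and Stat3 (100886806 to 100939594). Stat5b and Stat5a are neighbouring genes for closely related proteins, so the pair of their windows that aligned best of 4 pairs is shown (Stat5b, chr11:100822521-100822820, minus strand, and Stat5a, chr11:100860234-100860533, plus strand). The capitals mark a stretch with 82 identical bases in 102 columns of a local alignment (80.4%).
Stat5b: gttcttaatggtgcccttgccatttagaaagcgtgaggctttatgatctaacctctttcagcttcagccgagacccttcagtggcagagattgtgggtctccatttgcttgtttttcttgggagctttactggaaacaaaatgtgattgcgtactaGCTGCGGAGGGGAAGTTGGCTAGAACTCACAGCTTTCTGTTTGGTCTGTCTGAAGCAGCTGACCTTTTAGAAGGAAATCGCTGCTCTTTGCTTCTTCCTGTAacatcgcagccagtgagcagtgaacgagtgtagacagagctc
Stat5a: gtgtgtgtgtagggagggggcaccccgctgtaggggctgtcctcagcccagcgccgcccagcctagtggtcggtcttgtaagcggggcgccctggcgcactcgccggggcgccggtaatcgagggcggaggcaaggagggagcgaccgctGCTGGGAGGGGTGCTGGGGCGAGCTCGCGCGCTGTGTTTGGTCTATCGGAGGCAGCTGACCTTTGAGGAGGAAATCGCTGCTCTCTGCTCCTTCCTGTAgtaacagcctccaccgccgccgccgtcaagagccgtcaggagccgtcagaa
The other 3 pairs of windows gave lower alignment scores. Neither window holds TTCNNNGAA, which says only that these letters are not in these bases.

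Between the subsets, 3 of the 9 genes were called over both genotypes, and 1 of them, Stat5b, was still called with a covariate for the female share of RNA. Averaged over both genotypes, Stat5b was higher in Th17 than in Th1 cells by 0.58 ± 0.085 on the log2 scale, a 1.49-fold difference, and Socs2, a brake on growth hormone and cytokine receptors, was higher by 0.39 ± 0.13, a 1.31-fold difference. Pim1 was 1.33-fold lower in Th17 than in Th1 cells (log2 fold change -0.41 ± 0.099). Values after ± are standard errors unless SD is written, and the threshold for a call was 0.05 on limma's p after Benjamini-Hochberg adjustment over all 19938 genes. In that comparison 22.2% of all genes were called, 12.4% higher and 9.79% lower in Th17 cells, so that 3 of 9 is a share near the background of these 2 subsets. The count of called members was 2 of 9 in Tet2-deficient cells, where 10.1% of all genes were called, and 2 of 9 in wild-type cells, where 8.4% were called. The median log2 fold change of the 9 genes over both genotypes was -0.0134, against -0.0367 for all genes.

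**Figure D1:**
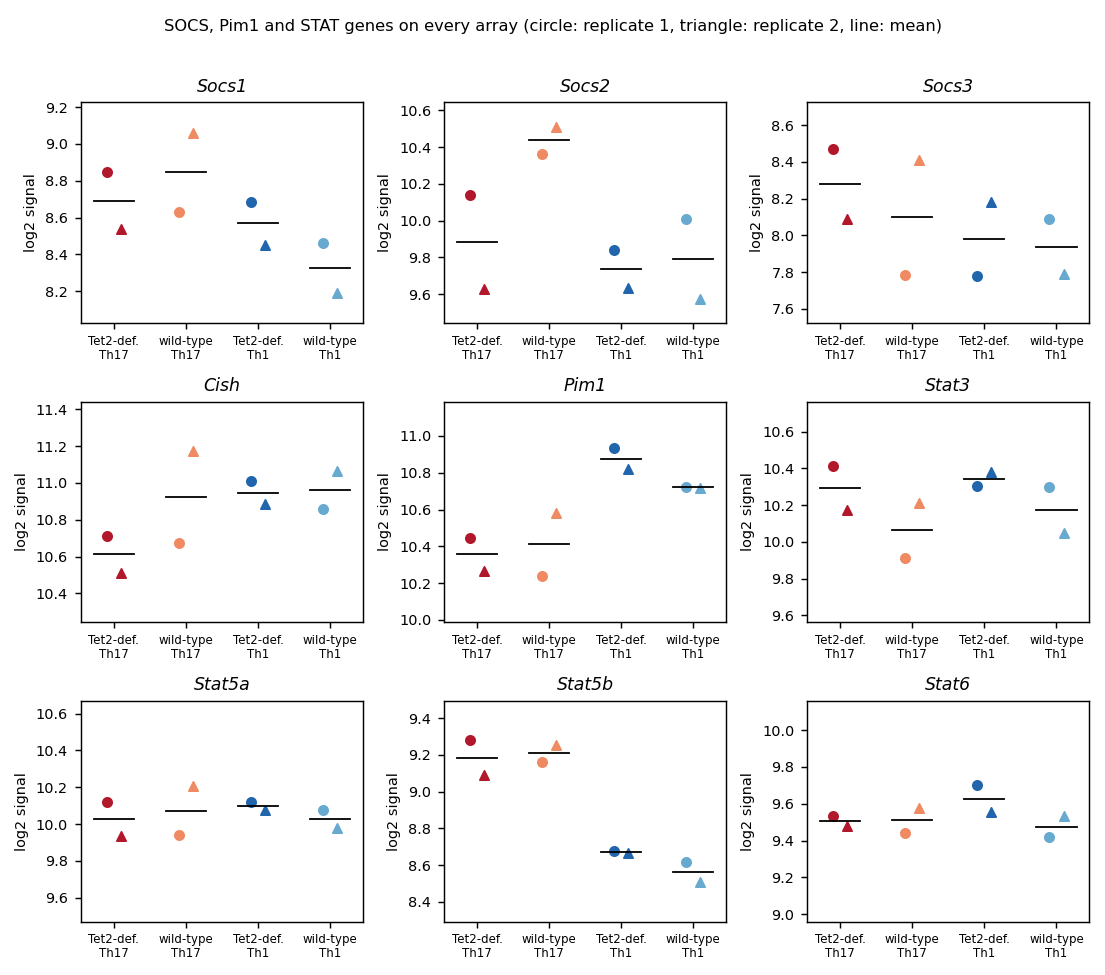
Log2 signal of each gene (vertical axis, the same span in every panel) in Tet2-deficient Th17, wild-type Th17, Tet2-deficient Th1 and wild-type Th1 cells, with a circle for replicate 1, a triangle for replicate 2 and a line for the mean of the 2 arrays. The 4 Th17 arrays of Stat5b lie between 9.09 and 9.28, above all 4 Th1 arrays, and Pim1 shows the opposite order. For every other gene the Th17 arrays and the Th1 arrays, taken over both genotypes, overlap.

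Stat5b encodes the STAT5 protein that carries much of the interleukin-2 signal in T cells. Its level was 9.28 and 9.09 in Tet2-deficient Th17 cells and 9.16 and 9.25 in wild-type Th17 cells. In Tet2-deficient Th1 cells it was 8.68 and 8.67, and in wild-type Th1 cells 8.62 and 8.51. All 4 Th17 arrays were high, all 4 Th1 arrays were low, and the subsets did not overlap. The log2 fold change, Th17 over Th1, was 0.51 ± 0.12 in Tet2-deficient cells (adjusted p = 0.0181, limma) and 0.65 ± 0.12 in wild-type cells (adjusted p = 0.00597), and over both genotypes the adjusted p was 0.000494. By p, Stat5b stood at place 675 of 19938 genes over both genotypes. In order of group means, wild-type and Tet2-deficient Th17 cells overlapped at the top, and the next steps down, to Tet2-deficient Th1 and then to wild-type Th1 cells, were without overlap. The call over both genotypes held in each of 18 alternatives, with log2 fold changes of 0.485 to 0.631. In wild-type cells it was lost on leaving out Th17 replicate 2 (0.60, adjusted p = 0.0605). In Tet2-deficient cells it was lost without Th17 replicate 1 (0.42), Th1 replicate 1 (0.52) or Th1 replicate 2 (0.51). There it was also lost with a covariate for the female share (0.59, adjusted p = 0.0941, limma) and when all probe sets were tested (0.51, adjusted p = 0.0634, limma).

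Stat5a, the neighbour and near copy of Stat5b, did not pass in either genotype. Its level was 10.12 and 9.93 in Tet2-deficient Th17 cells, 9.94 and 10.21 in wild-type Th17 cells, 10.12 and 10.08 in Tet2-deficient Th1 cells, and 10.08 and 9.98 in wild-type Th1 cells. Neighbours in the order of group means overlapped, and its whole range over the 8 arrays, 0.274, was the narrowest of the 9 genes, against 0.77 for Stat5b. Th17 over Th1, the log2 fold change was -0.07 ± 0.13 in Tet2-deficient and 0.05 ± 0.13 in wild-type cells, with 95% confidence intervals of -0.36 to 0.22 and -0.24 to 0.33. The difference between the 2 genes' changes was not tested.

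Stat3, the transcription factor needed for Th17 cells, had no called difference between the subsets at the level of its own messenger RNA. Its level was 10.42 and 10.18 in Tet2-deficient Th17 cells, 9.91 and 10.21 in wild-type Th17 cells, 10.30 and 10.38 in Tet2-deficient Th1 cells, and 10.30 and 10.05 in wild-type Th1 cells. All neighbours in the order of group means overlapped. The log2 fold change over both genotypes was -0.08 ± 0.10, with an interval of -0.31 to 0.15.

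Stat6, which relays interleukin-4, was about as even. It had 9.53 and 9.48 in Tet2-deficient Th17 cells, 9.44 and 9.58 in wild-type Th17 cells, 9.70 and 9.56 in Tet2-deficient Th1 cells, and 9.42 and 9.53 in wild-type Th1 cells. Neighbours overlapped at every step of the order of group means, and the log2 fold change over both genotypes was -0.04 ± 0.086, with an interval of -0.23 to 0.14. In Tet2-deficient cells both Th17 arrays lay below both Th1 arrays (-0.12 ± 0.12, not called), and in wild-type cells the subsets overlapped.

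Among the brakes, Socs2 was highest in wild-type Th17 cells. Its level was 10.14 and 9.63 in Tet2-deficient Th17 cells and 10.36 and 10.51 in wild-type Th17 cells. In Tet2-deficient Th1 cells it was 9.84 and 9.64, and in wild-type Th1 cells 10.01 and 9.58. Both wild-type Th17 arrays lay above the other 6, and the other 3 groups overlapped each other. By limma the log2 fold change of Th17 over Th1 was 0.65 ± 0.18 in wild-type cells (adjusted p = 0.0491, limma), 0.14 ± 0.18 in Tet2-deficient cells (adjusted p = 0.679) and 0.39 over both genotypes (adjusted p = 0.0465), and the difference between the genotypes' subset changes did not pass (-0.50 ± 0.26, adjusted p = 0.999). Both Socs2 calls lie near the threshold. In wild-type cells it was lost on leaving out Th17 replicate 1 (0.72, adjusted p = 0.0993), Th17 replicate 2 (0.57, adjusted p = 0.251) or Th1 replicate 2 (0.43, adjusted p = 0.215). Over both genotypes it ended when any array but wild-type Th1 replicate 1 or Tet2-deficient Th17 replicate 2 was left out, with 0.27 and an adjusted p of 0.204 without Tet2-deficient Th17 replicate 1, and 0.43 (adjusted p = 0.0673) and 0.36 (adjusted p = 0.139) without wild-type Th17 replicates 1 and 2. Without Tet2-deficient Th1 replicates 1 and 2 it was 0.45 (adjusted p = 0.0647) and 0.34 (adjusted p = 0.137), and without wild-type Th1 replicate 2 it was 0.29 (adjusted p = 0.134). This call was also lost when all probe sets were tested (adjusted p = 0.134), with quantile normalization applied again (0.34, adjusted p = 0.0939) and with a covariate for the female share (0.56, adjusted p = 0.0524).

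Socs1, the strongest brake on interferon-gamma and interleukin-2 signalling, did not pass in any subset comparison. Its level was 8.85 and 8.54 in Tet2-deficient Th17 cells, 8.63 and 9.06 in wild-type Th17 cells, 8.69 and 8.45 in Tet2-deficient Th1 cells, and 8.46 and 8.19 in wild-type Th1 cells. In wild-type cells both Th17 arrays lay above both Th1 arrays, while in Tet2-deficient cells the subsets overlapped. For Socs1 the log2 fold change of Th17 over Th1 was 0.52 ± 0.17 in wild-type cells (adjusted p = 0.0804), 0.12 ± 0.17 in Tet2-deficient cells and 0.32 ± 0.12 over both genotypes (adjusted p = 0.0748). Without wild-type Th17 replicate 1 it was called in wild-type cells (0.73, adjusted p = 0.0423) and over both genotypes (0.43, adjusted p = 0.0298), and with each array centred on its median it was called over both genotypes (0.36, adjusted p = 0.0465).

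Socs3, the brake on interleukin-6 and interleukin-23 receptors and so on STAT3, varied most between replicates. Its level was 8.47 and 8.09 in Tet2-deficient Th17 cells and 7.78 and 8.41 in wild-type Th17 cells. In Tet2-deficient Th1 cells it was 7.78 and 8.18, and in wild-type Th1 cells 8.09 and 7.79. Every group overlapped its neighbours, and the residual SD of 0.209 was the widest of the 9 genes. Over both genotypes Socs3 had a log2 fold change of 0.23 ± 0.15, with an interval of -0.09 to 0.55, whose upper end is a 1.47-fold rise.

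Cish encodes CIS, a STAT5-induced brake on interleukin-2 and T cell receptor signals. Its level was 10.71 and 10.51 in Tet2-deficient Th17 cells, 10.67 and 11.17 in wild-type Th17 cells, 11.01 and 10.88 in Tet2-deficient Th1 cells, and 10.86 and 11.06 in wild-type Th1 cells. In Tet2-deficient cells both Th17 arrays lay below both Th1 arrays, and in wild-type cells the subsets overlapped. For Cish the log2 fold change of Th17 over Th1 was -0.34 ± 0.17 in Tet2-deficient cells (adjusted p = 0.233) and -0.04 ± 0.17 in wild-type cells.

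Pim1, the STAT-induced survival kinase, was the member that fell in Th17 cells. Its level was 10.45 and 10.27 in Tet2-deficient Th17 cells and 10.24 and 10.58 in wild-type Th17 cells. In Tet2-deficient Th1 cells it was 10.93 and 10.82, and in wild-type Th1 cells 10.72 and 10.72. All 4 Th17 arrays lay below all 4 Th1 arrays. Pim1 and Stat5b were the 2 of 9 genes whose subsets did not overlap, where 24.6% of all genes did not. The order of group means from Tet2-deficient Th1 to wild-type Th1 to wild-type Th17 cells had no overlap between neighbours. For Pim1 the log2 fold change of Th17 over Th1 was -0.52 ± 0.14 in Tet2-deficient cells (adjusted p = 0.0351, limma), -0.31 ± 0.14 in wild-type cells, which did not pass (adjusted p = 0.198), and -0.41 over both genotypes (adjusted p = 0.0108). The difference between the genotypes' subset changes did not pass either (-0.21 ± 0.20). Over both genotypes the Pim1 call was lost on leaving out Tet2-deficient Th17 replicate 2 (-0.37, adjusted p = 0.0556) and with a covariate for the female share (-0.41, adjusted p = 0.0952). In Tet2-deficient cells it was lost when any of the 4 arrays was left out, with -0.61 (adjusted p = 0.108) lacking Th17 replicate 1, -0.43 (adjusted p = 0.231) lacking Th17 replicate 2, -0.46 (adjusted p = 0.184) lacking Th1 replicate 1 and -0.575 (adjusted p = 0.0800) lacking Th1 replicate 2.

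**Figure D2:**
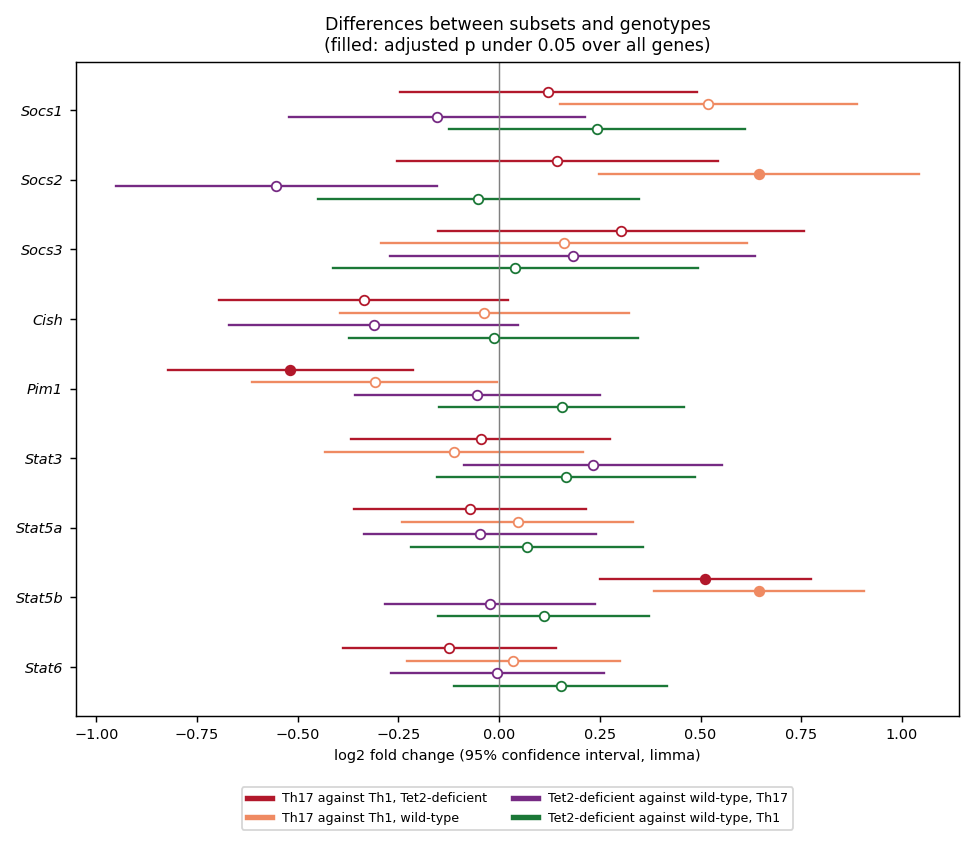
Log2 fold change (horizontal axis) with its 95% confidence interval from limma for Th17 against Th1 cells in each genotype and for Tet2-deficient against wild-type cells in each subset, with filled points where the adjusted p was under 0.05. The filled points are Stat5b in both genotypes, Socs2 in wild-type cells and Pim1 in Tet2-deficient cells, and every point of Tet2-deficient against wild-type cells is open.

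Between Tet2-deficient and wild-type cells, 0 of the 9 genes passed in Th17 cells and 0 of 9 in Th1 cells by limma with the adjusted threshold. The background was 0 of 19938 genes called in Th17 cells and 0.00502% in Th1 cells, which is 1 gene, Ifng. At an unadjusted p under 0.05, 1 of the 9 genes was reached in Th17 cells, where 4.13% of all genes were, and 0 in Th1 cells, where 6.05% were. That gene was Socs2. Its log2 fold change in Tet2-deficient against wild-type Th17 cells was -0.55 ± 0.18, with an interval of -0.95 to -0.15, and it did not pass after adjustment (adjusted p = 0.983). The same wild-type Th17 arrays enter this value and the subset difference of Socs2 in wild-type cells, so the values are not independent of each other. In Th1 cells Socs2 had -0.05 ± 0.18.

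The other brakes had log2 fold changes in Tet2-deficient against wild-type Th17 cells of -0.31 ± 0.17 for Cish, -0.15 ± 0.17 for Socs1 and 0.18 ± 0.21 for Socs3. In Th1 cells these were -0.01 ± 0.17 for Cish, 0.24 ± 0.17 for Socs1 and 0.04 ± 0.21 for Socs3. None of them passed in either subset, and the arrays of the genotypes overlapped for all 3 in both subsets. Pim1 had -0.05 ± 0.14 in Th17 and 0.15 ± 0.14 in Th1 cells, where both Tet2-deficient arrays lay above both wild-type arrays.

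Among the STATs, Stat3 had the widest difference between genotypes in Th17 cells, 0.23 ± 0.15, with an interval of -0.09 to 0.55 and overlapping arrays. Stat5a (-0.05 ± 0.13), Stat5b (-0.02 ± 0.12) and Stat6 (-0.01 ± 0.12) lay near 0. For Stat6 the interval of -0.27 to 0.26 leaves room for a change of about 1.2-fold in either direction. In Th1 cells Stat3 (0.17 ± 0.15), Stat6 (0.15 ± 0.12), Stat5b (0.11 ± 0.12) and Stat5a (0.07 ± 0.13) were all above 0, with none called.

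In Th1 cells 7 of the 9 log2 fold changes were above 0 and the groups did not overlap for 5 of 9 genes (Pim1, Stat3, Stat5a, Stat5b and Stat6), where 33.3% of all genes did not overlap. In Th17 cells 7 of 9 were below 0 and 1 of 9, Socs2, did not overlap, where 32.9% of all genes did not. The median of the 9 genes was 0.111 in Th1 and -0.0483 in Th17 cells, beside medians of 0.0135 and 0.0134 for all genes. The test of the difference between the genotype effects, Th17 minus Th1, called 0 of 9 members and 0 of 19938 genes (limma), and at an unadjusted p under 0.05 it held 0 members and 894 genes. Its widest values were -0.50 ± 0.26 for Socs2, -0.40 ± 0.24 for Socs1 and -0.30 ± 0.23 for Cish.

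The spread between the 2 arrays of a group was wide for these genes beside the genotype differences, and in Th17 cells it ran the same way for all 9. On the Tet2-deficient Th17 arrays replicate 2 was lower than replicate 1 for 9 of 9 genes, by 0.05 for Stat6 to 0.51 for Socs2. In wild-type Th17 cells replicate 2 was higher than replicate 1 for 9 of 9 genes, by 0.09 for Stat5b to 0.63 for Socs3. Over all genes, replicate 2 was higher for 44.4% in Tet2-deficient and 46.8% in wild-type Th17 cells, and the median absolute difference was 0.110 and 0.122. The fall in Tet2-deficient Th17 cells was not particular to the 9 genes. Replicate 2 was also lower there for Socs4, Socs5, Socs6, Socs7, Stat2, Jak1, Jak2, Tyk2, Pim2 and Pim3, but not for Stat4. In wild-type Th17 cells these genes went both ways, with Socs4, Socs6, Stat4 and Jak2 lower and the rest higher in replicate 2. In Th1 cells the 9 genes did not line up, with replicate 2 higher for 2 of 9 genes in each genotype. The larger of the 2 replicate gaps exceeded the genotype difference for 8 of 9 genes in Th17 cells, all but Socs2, and for 6 of 9 in Th1 cells.

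In Th17 cells the female share of RNA was higher in replicate 2 of both genotypes. All 9 genes were lower in replicate 2 of Tet2-deficient cells and higher in replicate 2 of wild-type cells. The part of the sex of the RNA in this spread was not tested. The highest of the 8 arrays was wild-type Th17 replicate 2 for 4 genes (Socs1, Socs2, Cish and Stat5a) and Tet2-deficient Th17 replicate 1 for 3 genes (Socs3, Stat3 and Stat5b). No pairing of arrays by replicate number was visible across groups.

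**Figure D3:**
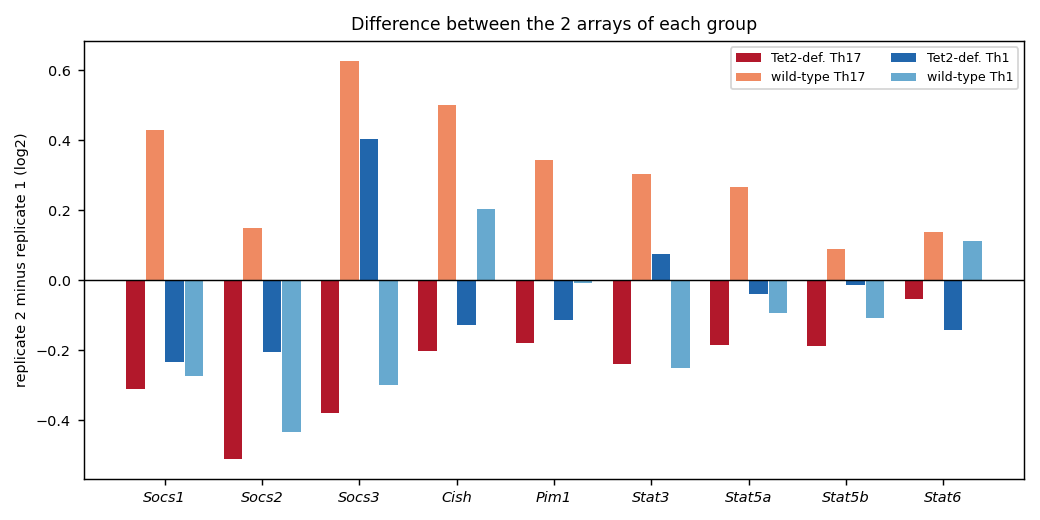
Replicate 2 minus replicate 1 on the log2 scale (vertical axis, from 0) for each gene in the 4 groups, with a bar for each group. All 9 bars of Tet2-deficient Th17 cells point down and all 9 of wild-type Th17 cells point up, the longest being Socs2 in the first and Socs3, at 0.63, in the second.

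Socs2 and Socs3 have a second probe set each. The genome positions of both Socs2 probe sets are not given in the sources used here, so either may read another copy of the sequence, and the values of Socs2 carry that limit. The other probe set (10372069) had values in the same direction as the one used (10394674). It had 7.98 and 7.57 in Tet2-deficient Th17 cells, 8.30 and 8.24 in wild-type Th17 cells, 7.66 and 7.67 in Tet2-deficient Th1 cells, and 7.81 and 7.47 in wild-type Th1 cells. Both wild-type Th17 arrays were again the highest. Its log2 fold change was 0.63 for Th17 over Th1 in wild-type cells, 0.11 in Tet2-deficient cells, and -0.49 for Tet2-deficient over wild-type Th17 cells, beside 0.65, 0.14 and -0.55 for the probe set used. In a test of all probe sets neither passed, with adjusted p of 0.122 and 0.165 for the wild-type subset difference. The other probe set of Socs3 (10383010) is annotated by a single older transcript record, averaged 6.19, near the median gene, and did not share the spread of the one used (10393449). Its level ran from 5.98 to 6.32, and its log2 fold change over both genotypes was -0.07.

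**Figure D4:**
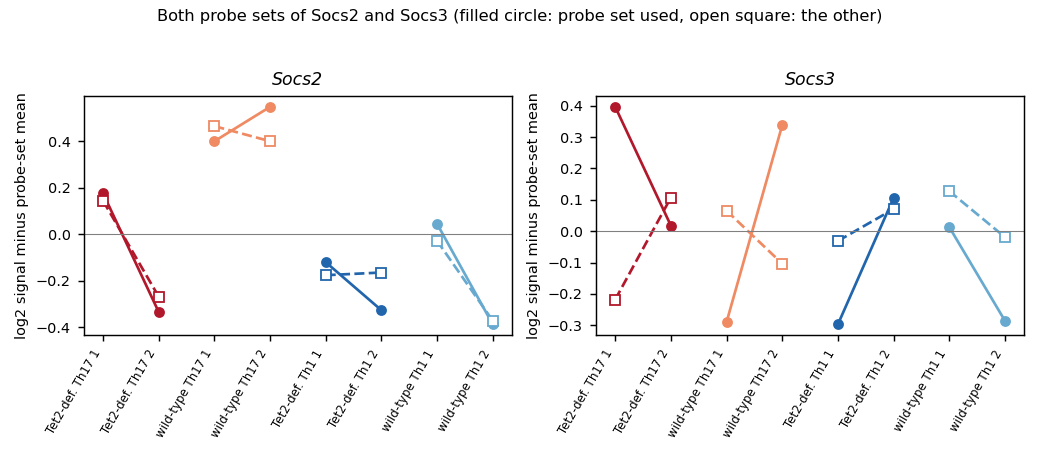
Log2 signal minus the mean of its probe set over the 8 arrays (vertical axis) for both probe sets of Socs2 and Socs3 on every array, with filled circles for the probe set used and open squares for the other. For Socs2 both sets are highest on the 2 wild-type Th17 arrays, and for Socs3 the sets move apart.

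Across the 8 arrays, which share the subset difference, the 36 pairs of members had Pearson correlations from -0.755 (Pim1 with Stat5b) to 0.791 (Socs1 with Socs2), given here as a description. Stat5a and Stat5b had 0.13, and Cish and Pim1, a pair of STAT5-induced genes, 0.713. With Socs1, Socs2 and Socs3, Cish had only 0.124, 0.153 and -0.0109, and Pim1 had -0.22, -0.35 and -0.154. Among 9960 genes at or above the median level, the closest to Stat5b were Spsb3 (0.995), Ltb (0.991), which encodes lymphotoxin beta, and Ccdc117 (0.990). Spsb3, which encodes a protein with a SOCS box, had a log2 fold change, Th17 over Th1, of 0.89 in Tet2-deficient and 1.02 in wild-type cells, and Ltb had 0.995 and 1.25. The closest to Pim1 were Sh3bp2 (0.984), Spry1 (0.984), which encodes an inhibitor of receptor signalling, and Gramd1b (0.981). The closest to Socs1 was Mrps18b (0.989) and to Socs2 Elp6 (0.963), and the closest to Socs3 was Gadd45gip1 (0.973). Snora21 came closest to Cish (0.961), Fam89a to Stat3 (0.976), Tysnd1 to Stat5a (0.954) and Adsl to Stat6 (0.956). These genes were picked as the highest of 9960 correlations over only 8 arrays. Such a choice can yield values this high among unrelated genes too, and shared regulation was not tested.

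Some ligands and receptor chains of the pathway had wider differences between the subsets than any of the 9 genes. Of the ligands, 3 rose and 3 fell of 19 measured in Th17 against Th1 cells over both genotypes. Ifng, which encodes interferon-gamma, had a log2 fold change of -5.02 ± 0.096, Il3 had -2.88 ± 0.13 and Il21, the autocrine STAT3 cytokine of Th17 cells, 1.76 ± 0.12. Of 22 receptor chains, 9 rose and 5 fell, with Il23r, the interleukin-23 receptor, at 4.36 ± 0.11, Il12rb2, the interleukin-12 receptor chain of Th1 cells, at -1.47 ± 0.089 and Ifngr2 at 1.32 ± 0.096. The background for these counts is the 12.4% of all genes that were higher and the 9.79% that were lower.

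Of the kinases that link receptors to STATs, Jak1 rose and Jak2 and Tyk2 did not pass. The level of Jak1 was 11.24 and 11.12 in Tet2-deficient Th17 cells, 10.85 and 11.08 in wild-type Th17 cells, 10.39 and 10.50 in Tet2-deficient Th1 cells, and 10.50 and 10.42 in wild-type Th1 cells. All Th17 arrays lay above all Th1 arrays, with log2 fold changes of 0.74 ± 0.13 in Tet2-deficient cells (adjusted p = 0.00303, limma) and 0.50 ± 0.13 in wild-type cells (adjusted p = 0.0310). Of the other STATs, Stat2, which relays type I interferon, fell over both genotypes (-0.50 ± 0.12, adjusted p = 0.0127) and Stat4 had 0.08. Pim3, a relative of Pim1, fell like it over both genotypes (-0.43 ± 0.093, adjusted p = 0.00618), and Pim2 had 0.18.

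Of the other SOCS genes, Socs4, Socs5, Socs6 and Socs7, 0 of 4 passed in any comparison by limma, with log2 fold changes over both genotypes from -0.20 (Socs7) to 0.26 (Socs4). Of 13 other dampers of the pathway, 3 rose and 3 fell over both genotypes. Usp18, an interferon-induced brake on the type I interferon receptor, had -1.69 ± 0.079, Ptpn6, the phosphatase SHP-1, -0.51 ± 0.091 and Pias1, an inhibitor of activated STATs, 0.39 ± 0.081.

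**Figure D5:**
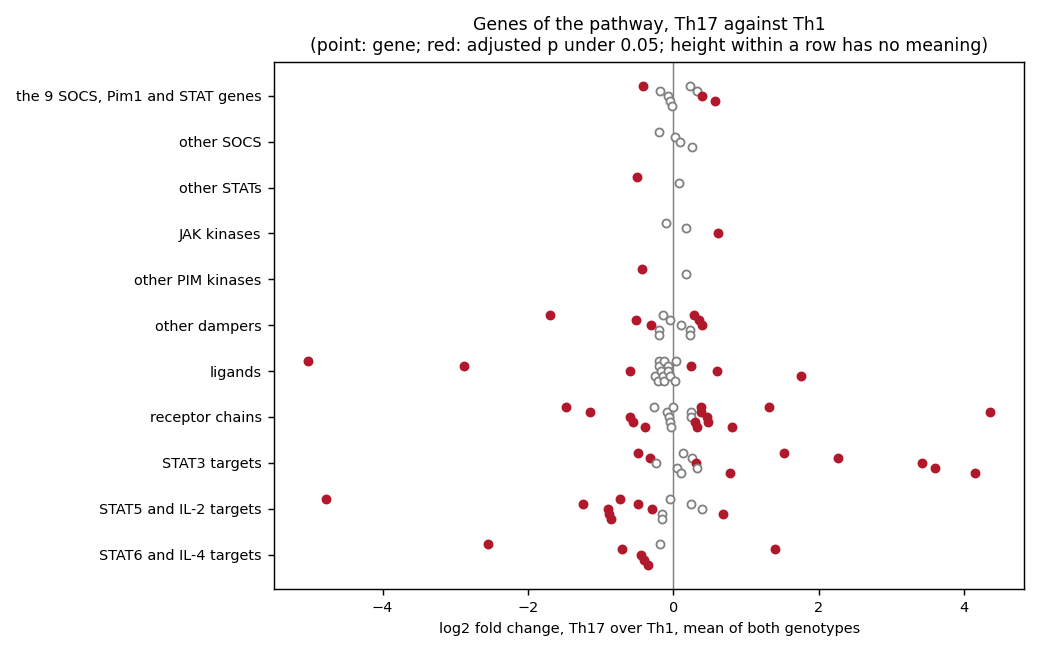
Log2 fold change of Th17 over Th1 cells, as the mean of both genotypes (horizontal axis), for the 9 genes and 10 lists of the pathway, with a point for each measured gene and red points at an adjusted p under 0.05. The 9 genes stay within -0.41 and 0.58, while ligands, receptor chains and STAT target genes reach from -5.02 to 4.36.

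Counts for known targets of STAT3, STAT5 and STAT6 over both genotypes stand beside the same background of 12.4% higher and 9.79% lower, and the lists were not tested against each other or against all genes. Of 15 STAT3 targets, 7 rose and 2 fell, with a median of 0.314. The 3 that rose furthest were Il17f (4.15 ± 0.11), Maf (3.60 ± 0.17) and Il17a (3.42 ± 0.12), of which the interleukin-17 genes define the subset, and Stat3 itself had -0.08.

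Of 14 targets of STAT5 and interleukin-2, 1 rose and 8 fell, with a median of -0.39. Gzmb, which encodes granzyme B, had -4.78 ± 0.14, Gadd45g -1.24 ± 0.10 and Prf1, which encodes perforin, -0.90 ± 0.11, while the survival gene Bcl2 rose by 0.68 ± 0.098. Stat5b was thus higher in the subset in which 8 of the 14 targets were lower, and granzyme B and perforin are also known genes of the Th1 programme. Of 7 STAT6 and interleukin-4 targets, 1 rose (Ccr4, 1.39 ± 0.11) and 5 fell, among them Il24 (-2.54 ± 0.11) and Nfil3 (-0.71 ± 0.095).

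In Tet2-deficient against wild-type Th17 cells, 12 of the 14 STAT5 and interleukin-2 targets had log2 fold changes below 0, beside 45.6% of all genes, with a median of -0.234 against 0.0134 for all genes. By limma 0 of them were called. The lowest was Lta, which encodes lymphotoxin alpha, at 8.97 and 8.76 on Tet2-deficient Th17 arrays, against 9.71 and 9.95 in wild-type Th17 cells. Its arrays did not overlap, and its log2 fold change of -0.96 ± 0.15 did not pass (adjusted p = 0.183). Il2, which encodes interleukin-2, read 6.63 and 6.27 on Tet2-deficient Th17 arrays, against 6.90 and 7.21 in wild-type Th17 cells. These values lie near the median gene (6.56). The arrays of Il2 did not overlap either, where 32.9% of all genes did not. Its log2 fold change of -0.60 was the lowest of the 19 ligands measured and did not pass. In Th1 cells 9 of the 14 targets were above 0, with a median of 0.036. The lean below 0 in Th17 cells was not particular to this list. There, 6 of 7 STAT6 and interleukin-4 targets (median -0.284) and 16 of 19 ligands (median -0.0988) were below 0. So were 8 of 15 STAT3 targets, 10 of 22 receptor chains and 2 of 13 other dampers. The only gene of all 10 lists called between genotypes was Ifng in Th1 cells (-1.39 ± 0.14, adjusted p = 0.00438), a call lost when only the Th1 arrays were fitted, when all probe sets were tested, and without replicate 2 of either Th1 group.

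Some markers of other cell types also moved with subset or genotype. Of 3 neutrophil markers, over both genotypes Ly6g was called higher (1.22 ± 0.12) and S100a8 lower (-0.28 ± 0.074) in Th17 cells, and S100a9 did not pass (-0.14 ± 0.091). Their summed linear signal was 1219 to 1433 in Tet2-deficient Th17, 623.6 to 827.7 in wild-type Th17, 487 to 525.2 in Tet2-deficient Th1 and 440.1 to 483 in wild-type Th1 cells, with S100a8 and S100a9 under the median gene. Of 4 natural killer cell markers, with 3 under the median gene, the sum was 319.6 to 411.5 in Tet2-deficient Th17, 229.5 to 256.9 in wild-type Th17 and 388.5 to 408.1 in Th1 cells. Different genes carried these sums. Klrd1 was highest in Tet2-deficient Th17 cells (7.25 and 8.07, against 6.30 and 6.51 in wild-type Th17 cells). Eomes was higher in Th1 cells (8.18 to 8.26) than in Th17 cells (6.66 to 7.03). Of 3 regulatory T cell markers the sum was 421.1 to 426.2 in Tet2-deficient Th17, 646.8 to 672.6 in wild-type Th17 and 326.6 to 344.9 in Th1 cells, a pattern carried by Gpr83, with Foxp3 and Ikzf2 under the median gene. Like Socs2, Gpr83 was highest in wild-type Th17 cells. The part of these cell types in the results was not tested.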

How the data were processed

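The arrays measured biotin-labelled total RNA. The deposited values were log2 signals of 35556 probe sets, made by the authors with GCOS, RMA and Affymetrix Expression Console, per the submitters' processing notes, which give no versions, order or options. RMA brings arrays to a common distribution, so no further scaling was applied. Array medians lay between 6.53 and 6.61, and correlations across genes between the arrays of a group were 0.99 to 0.994. Signals have no counting depth, and the 2 arrays per group limit the precision. The platform annotation gave 21789 probe sets a single symbol. For the 999 genes with several such sets the brightest was kept, leaving 19938 genes, and no gene was dropped for low signal.

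Genes were fitted with limma 3.58.1 in R 4.3.3 on the means of the 4 groups, using eBayes with a trend on intensity (4 residual and 8.32 prior degrees of freedom). P-values were two-sided and were adjusted over all genes of each comparison (Benjamini-Hochberg). The fit was tested on simulated data with changes of known size. Of 1.5-fold changes between subsets, 70% were found in Tet2-deficient cells, 66.8% in wild-type cells and 98.2% over both genotypes. Of 2-fold changes, at least 99.6% were found in each of these comparisons. False calls came to 9.02%, 7.61% and 7.72% in the same order. In the simulation these shares exceeded what the adjusted threshold is meant to allow, so calls near it, such as those of Socs2, need caution. A far larger part of the genes was called in the data (8.4% to 22.2%) than was changed in the simulation. The shares found and the shares of false calls may therefore differ in the data. Windows were aligned with Biopython 1.88 (local, match 1, mismatch -1, gap opening -3, gap extension -1).

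The 9 genes and all lists were chosen with earlier results of these data known. From each list, up to 3 called genes with the largest change in a comparison were named, or the range where none was called, and for each of the 9 genes the 3 genes of highest Pearson correlation were found. Lta, Il2, Bcl2, Ccr4, Stat4, Pim2, Jak2, Tyk2, Ly6g, Gpr83, S100a8, S100a9, Foxp3 and Ikzf2 were named after their values were seen. Listed genes without a symbol of their own on the array, among them Jak3, Il22, Il2rg, Il1rl1, Lck and Ddx3y, were not analysed here, and a planned list of target genes is not reported here.

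Correlations of deviations between arrays of the same number in different groups were -0.186 to 0.0613, so no pairing by replicate number was visible. Low correlations cannot exclude that such arrays share an origin. The alternatives tried were a replicate block, a fit limited to the arrays compared, dropping genes below the median, testing all probe sets, averaging a gene's probe sets, a second quantile normalization, centring of arrays, robust eBayes, eBayes with no trend, array weights, a covariate for the female share of RNA and leaving out each array in turn.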

Additional observations from a re-analysis of the deposited data

How the results depend on the processing

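With 2 arrays per group, each call leans on few values. Of the calls of single members, Stat5b over both genotypes passed under all 18 alternatives, and 0 called members reversed under any. A replicate block left 1 of the 9 genes called in Tet2-deficient cells, Stat5b, and Pim1 was lost (-0.52, adjusted p = 0.0634). It changed no other member's call, and no pairing by replicate number was visible. Th17 against Th1 in Tet2-deficient cells held 0 called members when all probe sets were tested and 0 with the female share as covariate. In wild-type cells it held 1 with only the arrays compared, 1 with all probe sets, 1 with quantile normalization applied again and 1 with array weights, the lost gene each time being Socs2. Over both genotypes 1 remained with the female share, Stat5b. Leaving out each array, the count ran from 0 to 1 in Tet2-deficient and from 0 to 2 in wild-type cells. The comparisons of genotypes held 0 called members under every alternative run. The count of all genes called over both genotypes was 4417 and fell to 2054 with the female share. Without Tet2-deficient Th17 replicate 1 it was 2651. In Tet2-deficient cells it was 2015, with 726 under the female share, 1001 when all probe sets were tested and 801 to 1204 without 1 array. In wild-type cells it was 1675, with 599 for all probe sets, 1101 with only the arrays compared and 663 to 1427 without 1 array. Between genotypes, the 1 gene called in Th1 cells became 0 with only the arrays compared or all probe sets and 0 to 2 without 1 array. The 0 in Th17 cells became 1 with genes under the median left out, 2 with robust eBayes or array weights and 0 to 4 without 1 array. Where an array was left out, the lone array of its group is assumed to vary like the other groups.

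Sign changes touched only values that were not called. For Th17 against Th1, quantile normalization again gave -0.016 for Stat5a and -0.065 for Stat6 in wild-type cells. Centring gave 0.000666 for Stat3 in Tet2-deficient cells and 0.028 for Stat5a over both genotypes, and the female share gave 0.000986 and 0.0059 for the same values. The female share also gave 0.025 for Stat5b between genotypes in Th17 cells. Leaving out each array, these values crossed 0. Between genotypes in Th1 cells, Socs2 ran from -0.27 to 0.16, Socs3 from -0.16 to 0.24 and Cish from -0.12 to 0.089. Between genotypes in Th17 cells, Socs1 ran from -0.37 to 0.061, Socs3 from -0.13 to 0.50, Pim1 from -0.23 to 0.12, Stat5a from -0.18 to 0.085, Stat5b from -0.12 to 0.071 and Stat6 from -0.073 to 0.063. In the difference of these effects, Socs3 ran from -0.17 to 0.46, Stat3 from -0.086 to 0.22 and Stat5a from -0.25 to 0.015. Between subsets in Tet2-deficient cells, Socs1 ran from -0.033 to 0.28, Socs2 from -0.11 to 0.40, Stat3 from -0.17 to 0.074 and Stat5a from -0.17 to 0.020. Between subsets in wild-type cells, Socs3 ran from -0.15 to 0.47, Cish from -0.29 to 0.21, Stat3 from -0.26 to 0.040, Stat5a from -0.088 to 0.18 and Stat6 from -0.033 to 0.10. Over both genotypes, Stat5a ran from -0.080 to 0.053. The cause of these changes was not tested.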
